A study of Dimocarpus longan with 9 samples.

Results

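NAC genes encode one of the large families of plant transcription factors, named after NO APICAL MERISTEM of petunia and ATAF and CUP-SHAPED COTYLEDON of Arabidopsis. A NAC protein binds DNA through a conserved domain at its amino end and usually activates its targets through a variable tail. In Arabidopsis, members of the family set organ boundaries in shoots and flowers, switch on secondary wall formation in vessels and fibres, drive leaf senescence, shape the root tip and act in responses to drought and pathogens, and in tomato a NAC gene is needed for normal ripening. These roles are background from other species. The longan genes are known here only by their gene numbers, with a few domain annotations given where they apply.

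The NAC genes of longan (Dimocarpus longan), an evergreen fruit tree of the soapberry family, were picked by type out of the transcription factor list that the study gives, and matched by gene number to the expression table. The list holds 1611 genes of 64 types, of which 107 are NAC. Of these, 103 were found among the 30014 genes of the table, and the other 4 (Dlo_005307.1, Dlo_010139.1, Dlo_018135.1 and Dlo_022334.1) were not analysed here. The rule used no expression value, although it was set with earlier results of these data known.

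Poly(A) RNA was sequenced from 9 tissues of the cultivar SJM (sijimi), with 1 library per tissue. They were 3 vegetative organs (root, stem, leaf), 2 floral stages (bud and open flower, labelled flower bud and flower), whole young fruit, and the parts of the later fruit, namely seed, pulp (the aril that is eaten) and pericarp (the rind). All libraries come from 1 cultivar, and none was treated. Values are FPKM, which divides fragments by transcript length and by the mapped total, so they can be compared between genes per unit of length. With 1 library per tissue, no difference below has a replicate check and none carries a p-value. Each is a statement about these libraries, and counts over the NAC genes are set beside the same counts over all genes of the table.

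Depth was not given as counts. The spacing of low FPKM values put the libraries within -0.12 (pulp) to 0.54 (leaf) of root on the log2 scale, and scaling factors, the log2 median ratios over 12039 genes that passed 1 FPKM in every library, lay between -0.25 in pulp and 0.27 in young fruit. The labels were checked against genes of known tissue preference. The 6 YABBY genes, which pattern lateral organs, summed to 5.33 FPKM in root and to 72.5 to 568 FPKM in the other tissues. A photosystem II oxygen-evolving gene (Dlo_000983.1) was at 0.22 FPKM in root and 115 FPKM in leaf, but it reached 123 FPKM in seed. A chlorophyll-binding protein gene (Dlo_012937.1) was also highest in seed, at 16.7 FPKM against 1.5 FPKM in leaf, so it did not mark the leaf library. The 24 MIKC MADS-box genes, which include the floral identity genes, were lowest in root (107 FPKM) but highest in pericarp (2072 FPKM), above flower (1429 FPKM), and the LEAFY-type gene (Dlo_005438.1), an early floral regulator, was highest in flower bud at only 1.09 FPKM.

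Of the 103 NAC genes, 98 were above 0 FPKM in a tissue and 75 reached 1 FPKM in at least 1 tissue. That share of 72.8% was under the 78.8% of all genes and the 84.6% of all transcription factor genes. Of the 103, 33 members (32.0%) were above 0 in all 9 tissues, against 52.3% of all genes, while 19 were at 5 FPKM or more in every tissue (18.4%, against 27.0% of all genes). A highest value of 100 FPKM or more, held for 21 members (20.4%, against 15.4% of all genes), some of them among the 19. A group of 23 members were above 0 but never reached 1 FPKM. Over all 30014 genes, 28598 were above 0 in a tissue and 23661 reached 1 FPKM. Dlo_006903.1, Dlo_028295.1, Dlo_029891.1, Dlo_029896.1 and Dlo_029897.1 were listed at 0 in all 9 tissues (4.85% of the members, near the 4.72% of all genes).

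**Figure D1:**
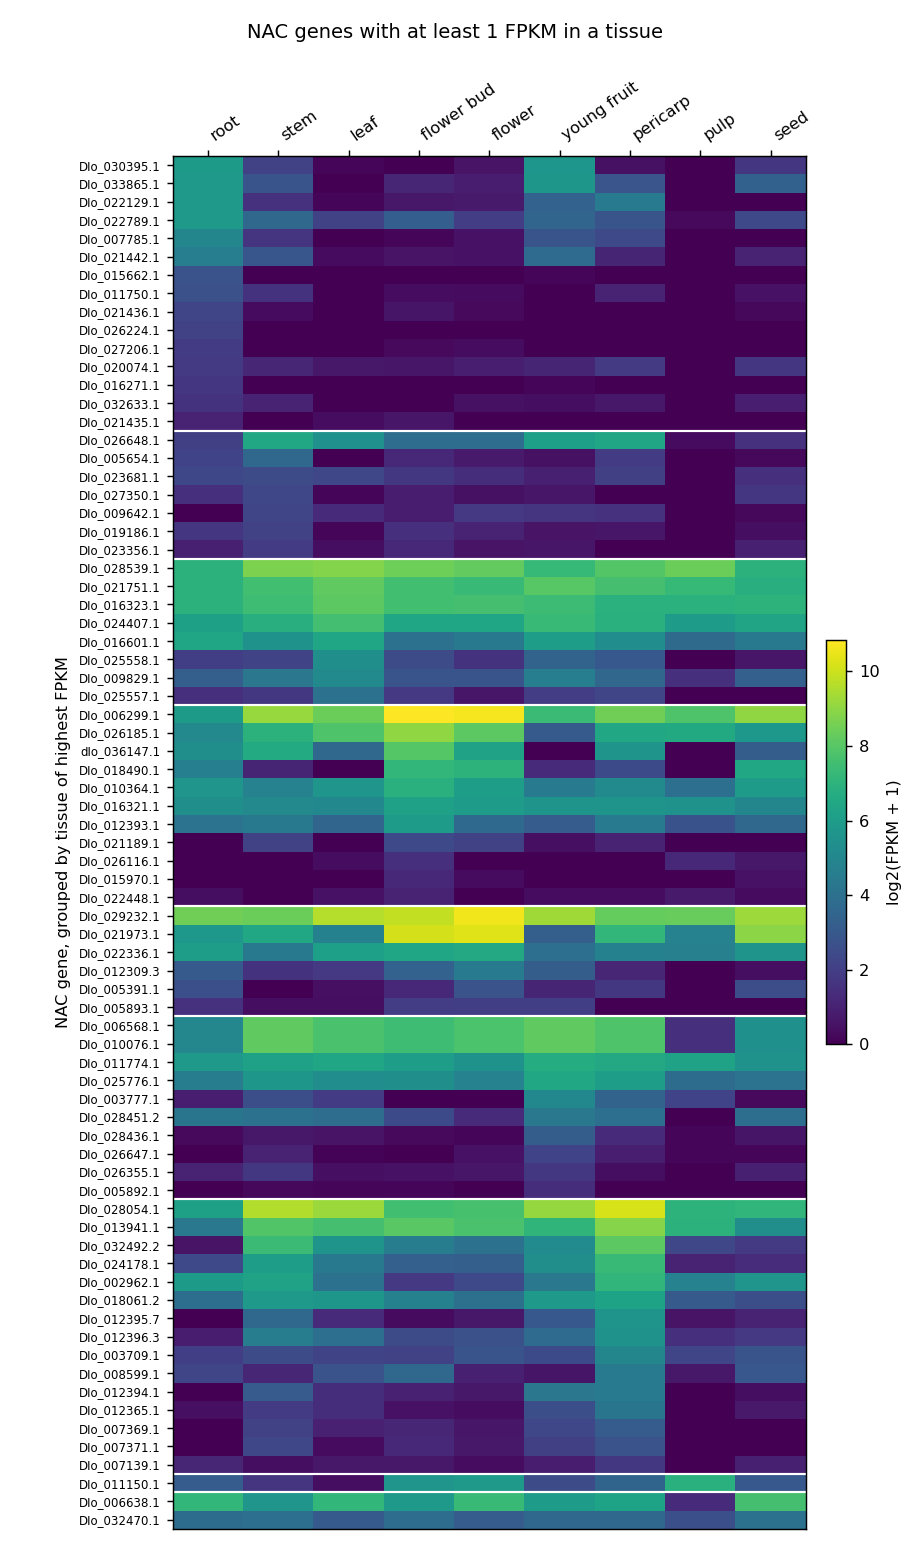
Heat map of log2(FPKM + 1) for the 75 NAC genes with at least 1 FPKM in a tissue, 1 library per tissue in columns and genes in rows, grouped by the tissue of the highest value (white lines) and ordered by that value. Root and pericarp have the largest blocks, with 15 genes each, and pulp has 1.

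Flower bud had the most NAC genes above 0, with 83, ahead of young fruit (77) and flower (75). Root and stem had 70 each, leaf and pericarp 68 each, seed 66 and pulp 42. The share was 74.8% in young fruit (all genes 75.8%), 72.8% in flower (74.7%) and 68.0% in root (74.0%). It was 68.0% in stem (all genes 73.6%), 66.0% in leaf (70.9%), 66.0% in pericarp (72.6%) and 64.1% in seed (74.4%). Pulp stood below the other tissues. In pulp 40.8% of the NAC genes were above 0, against 64.4% of all genes, whereas in flower bud the shares were 80.6% and 77.0%. At a limit of 1 FPKM, pulp again had the fewest members, 31 (30.1%, against 50.1% of all genes). The highest number was 61, in stem (59.2%, near the 60.1% of all genes). Pulp was also the shallowest library by the spacing of low values, while leaf, the deepest, had 68, and the part of depth in these counts was not tested.

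Summed over the family, FPKM was 7204 in flower, 7117 in flower bud, 5180 in pericarp, 4657 in leaf, 4651 in stem, 3780 in young fruit, 3042 in seed, 2123 in root and 1963 in pulp. Flower bud and flower were highest, with 0.781% and 0.792% of their library totals, and root and pulp were lowest, with 0.210% and 0.204%. Scaling by the median ratio put pulp (2335 FPKM) above root (2034 FPKM), so the sums of these tissues cannot be ranked against each other. The floral lead rested on a few genes. The 5 members with the highest values made up 68.6% of the flower sum and 64.2% of the flower bud sum, against 26.8% in root. Without them the flower sum was 2265 FPKM and pericarp was highest, at 3123 FPKM, while pulp stayed among the low tissues at 1163 FPKM, under seed (1251 FPKM) and root (1554 FPKM).

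**Figure D2:**
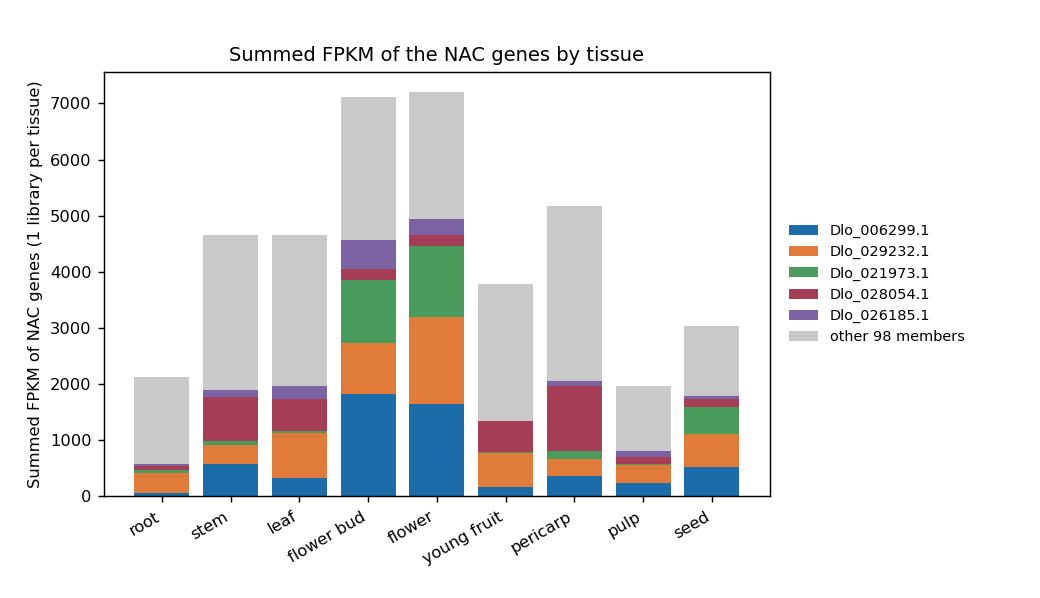
Summed FPKM of the 103 NAC genes in each tissue (1 library each), with the 5 members of the highest values as coloured segments and the other 98 members in grey. Flower bud (7117) and flower (7204) are the tallest bars, and their grey segments (2546 and 2265) are below that of pericarp (3123).

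The most abundant member, Dlo_006299.1, was a flower gene with a wide background. Its FPKM was 1819 in flower bud, 1642 in flower, 568 in stem, 516 in seed, 354 in pericarp, 334 in leaf, 231 in pulp, 166 in young fruit and 59.6 in root. The floral libraries were the highest, stem and seed followed, and root was lowest, 30.5-fold under flower bud. Scaling the libraries by the median ratio turned the order of flower bud and flower, so those libraries cannot be ranked for this gene, nor for Dlo_018490.1, which turned in the same way.

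Dlo_029232.1 was the most even of the 5 members with the highest values, and it was among the 3 highest NAC genes in 7 of the 9 tissues. It stood at 1550 FPKM in flower, 912 in flower bud, 796 in leaf, 615 in young fruit, 599 in seed, 352 in root, 340 in stem, 321 in pulp and 310 in pericarp. No tissue fell below 300 FPKM, and the highest value was 4.99-fold the lowest.

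Dlo_021973.1 was sharper. It was at 1264 FPKM in flower and 1131 FPKM in flower bud, and at 486 in seed, 144 in pericarp, 86.7 in stem, 53.4 in root, 27.0 in pulp, 26.4 in leaf and 8.81 in young fruit. Flower was 143-fold above young fruit, the largest difference of any member in that direction between those libraries (7.01 on log2(FPKM + 1)), while seed was next after the floral libraries. Dlo_018490.1 had a similar outline at a lower level, with 143 FPKM in flower bud, 126 FPKM in open flower, 89.4 FPKM in seed and 24.5 FPKM in root, at most 4.32 elsewhere, and 0 in leaf and pulp. Over the 9 tissues r of log2(FPKM + 1) between these genes was 0.87. Dlo_026185.1, the fifth most abundant member, was also floral (525 FPKM in flower bud, 276 in flower) and also lowest in young fruit, at 7.50 FPKM, but it was high in leaf (230 FPKM) rather than in seed (53.4 FPKM).

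The genes outside the family with the pattern most like that of Dlo_006299.1, among 19040 genes above 5 FPKM in a tissue, were Dlo_000475.1 (r = 0.96), Dlo_023583.1 (0.95) and Dlo_024927.1 (0.94), r being over the 9 tissues on log2(FPKM + 1) and given as a description. Dlo_024927.1 was at 2982 FPKM in flower bud, 2287 in flower and 28.0 in root, and Dlo_000475.1 at 300 FPKM in flower bud, 590 in flower and 0 in root. Dlo_023583.1 moved over a narrow range, from 12.6 to 23.9 FPKM. Inside the family the closest were Dlo_021973.1 (0.79), Dlo_026185.1 (0.76) and Dlo_029232.1 (0.65).

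Among the 75 members at 1 FPKM or more, the tissue of the highest value was root for 15, pericarp for 15, flower bud for 11, young fruit for 10, leaf for 8, stem for 7, flower for 6, seed for 2 and pulp for 1. Pericarp took 20% of the members against 8.45% of all genes, and pulp and seed took 1.33% and 2.67% against 11.6% and 11.2%. The root share (20%) was near that of all genes (17.3%). Scaling by the median ratio moved the peak of 8 members and cut the young fruit count from 10 to 5, while pericarp kept its count of 15 and seed its count of 2, and pulp rose to 2. Of the other types of the list, only ERF, WRKY and MYB were compared. The pericarp share was 23% of 100 ERF genes, 15.1% of 53 WRKY genes and 7.07% of 99 MYB genes, and the MYB genes peaked most often in root (34.3%).

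The pericarp group was led by Dlo_028054.1, at 1161 FPKM in pericarp, 777 in stem, 584 in leaf and 550.1 in young fruit, with 206 in flower, 184 in flower bud, 138 in seed, 126 in pulp and 70.8 in root. It was the highest NAC gene in both pericarp and stem. Stem held the second value in 8 of the 15 pericarp genes and young fruit in 3. The same count over all genes was not made. Over all genes, r of pericarp on log2(FPKM + 1) was 0.91 with stem and 0.91 with young fruit, so these partners are not particular to the family. Dlo_032492.2 showed this outline with a wider range. It was at 273 FPKM in pericarp, 166 in stem, 48.3 in leaf and 36.6 in young fruit, then 22.9 in flower bud, 15.8 in flower, 3.92 in pulp, 2.54 in seed and 0.48 in root. Its stem and root libraries gave the largest difference of any member in that comparison (-6.82, root against stem). Dlo_024178.1 followed with 160.5 FPKM in pericarp, 65.2 in stem, 40.2 in young fruit, 1.62 in seed and 1.06 in pulp.

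Dlo_013941.1 also peaked in pericarp (462 FPKM) and was also above 200 FPKM in flower bud (265), stem (234), flower (208) and leaf (201), and its low point was root (19.4 FPKM). Dlo_002962.1 combined high values in pericarp (141 FPKM), stem (75.4) and root (59.6) with low floral ones, 2.43 FPKM in flower bud and 4.27 in flower. Dlo_003709.1 was the flattest outside its peak, with 29.97 FPKM in pericarp and 3.02 to 6.01 FPKM in the other 8 tissues. Across all 15 the median was 44.4 FPKM in pericarp, 13.0 in young fruit, 11.7 in stem, 1.27 in root and 1.06 in pulp.

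The root group fell into 2 layers. Of its 15 genes, 6 exceeded 20 FPKM in root and 9 did not reach 6 FPKM anywhere. In the upper layer Dlo_030395.1 and Dlo_033865.1 were shared by root and young fruit almost evenly. Dlo_030395.1 was at 58.8 FPKM in root and 51.4 in young fruit, 3.32 in stem, 2.29 in seed and at most 0.50 in the other 5 tissues. Dlo_033865.1 was at 57.3 FPKM in root and 52.0 in young fruit, 9.34 in seed, 6.17 in pericarp and 6.10 in stem, and at most 1.25 elsewhere. Root and young fruit thus lay within 1.2-fold of each other for both genes.

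Dlo_022129.1 (56.7 FPKM in root) had pericarp as its second tissue (21.9), and Dlo_022789.1 (56.6 FPKM in root) was above 0 in every tissue, with 11.3 in stem as the next value. Dlo_007785.1 and Dlo_021442.1 reached 30.2 and 24.02 FPKM in root. Young fruit ranged from 6.08 to 52.0 FPKM over these 6 genes, leaf from 0 to 3.21 FPKM, and pulp was at 0 for 5 of them and at 0.21 FPKM for Dlo_022789.1.

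Restriction to a single tissue was measured by tau, an index on log2(FPKM + 1) that is 0 for an even gene and 1 for a gene seen in 1 tissue. With 0.9 as the limit, 7 of the 75 members (9.33%) were restricted, close to the 9.02% of all genes. The members were Dlo_015662.1 (5.83 FPKM), Dlo_021436.1 (3.79), Dlo_026224.1 (3.40), Dlo_027206.1 (2.71) and Dlo_016271.1 (2.32), all in root, Dlo_005892.1 in young fruit (1.70) and Dlo_015970.1 in flower bud (1.31). All were low, and of the 7 only Dlo_015662.1 passed 5 FPKM. Dlo_026224.1 was above 0 in root alone. None of the 21 members that reached 100 FPKM was among them.

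At the other end were the members with the lowest tau among those at 5 FPKM or more everywhere. On the log scale tau also falls with level, so its order is not that of the fold range. Dlo_016321.1 (tau 0.13, 30.2 to 72.0 FPKM) spanned 2.39-fold, less than Dlo_021751.1 (2.64-fold). Dlo_021751.1 (tau 0.10) lay between 110.0 FPKM in seed and 291 FPKM in leaf. Dlo_011774.1 (0.10) lay between 45.4 FPKM in seed and 104 FPKM in young fruit (pulp was its highest tissue after scaling), and Dlo_016323.1 (0.11) between 120 FPKM in pulp and 275 FPKM in leaf. Dlo_028539.1 had a tau of 0.11 at a higher level, with a wider range of 3.66-fold, 122 FPKM in seed to 447 FPKM in leaf. It was the highest NAC gene in pulp, at 333 FPKM. Of the 8 members that peaked in leaf, Dlo_028539.1, Dlo_021751.1, Dlo_016323.1 and Dlo_024407.1 (61.1 to 192 FPKM) were of this broad kind. Dlo_016601.1 (12.4 to 83.9 FPKM) was nearly as high in root (82.1 FPKM) as in leaf and was highest in root after scaling. Dlo_009829.1 ranged from 1.76 FPKM in pulp to 35.7 FPKM in leaf. Dlo_025558.1 was at 41.1 FPKM in leaf and at most 9.78 elsewhere, and its numbered neighbour Dlo_025557.1 had a similar outline.

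The stem group was low apart from Dlo_026648.1, which was at 89.9 FPKM in stem, 80.9 in pericarp, 67.8 in young fruit and 43.7 in leaf, 13.5 in flower bud, 13.7 in flower, and at 3.09 in root, 1.91 in seed and 0.24 in pulp. Its outline was thus that of the pericarp group with stem slightly ahead. The other 6 stem genes did not exceed 11.6 FPKM. In the young fruit group, Dlo_025776.1 was broad (13.2 FPKM in pulp to 90.2 in young fruit), whereas Dlo_003777.1 was at 32.7 FPKM in young fruit, 10.03 in pericarp, at most 5.04 elsewhere and 0 in flower bud and flower. Of the remaining floral genes, Dlo_010364.1 reached 115 FPKM in flower bud and Dlo_022336.1 91.8 FPKM in flower, both at 14.5 FPKM or more in all tissues, and Dlo_012309.3 was at 20.4 FPKM in flower and 0 in pulp.

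Pulp and seed each had few genes of their own. Dlo_011150.1 was the 1 member at 1 FPKM or more that peaked in pulp. It was at 117 FPKM in pulp, 57.6 in flower, 48.7 in flower bud, 10.3 in pericarp, 7.90 in root, 7.01 in seed, 4.54 in young fruit, 2.21 in stem and 0.32 in leaf. It had the largest difference in favour of pulp against young fruit (-4.41 on log2(FPKM + 1), young fruit minus pulp), pericarp (-3.39, pericarp minus pulp) and seed (3.88, pulp minus seed). Dlo_006638.1, with the highest value in seed (200.0 FPKM), was close behind in flower (163), leaf (143) and root (143), and stood at 1.45 FPKM in pulp. Dlo_032470.1 peaked in seed only nominally, at 15.6 FPKM within a range of 5.25 to 15.6 FPKM.

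Low values in pulp were more widespread. Pulp alone held the lowest value of 25 of the 75 members (33.3%, against 25.6% of all genes). Of the 43 members above 0 in all other 8 tissues, 10 were at 0 in pulp (23.3%, against 7.97% of all genes and 13.2% of all transcription factor genes). The same share was 25.6% of 43 WRKY genes and 23.6% of 55 MYB genes, near that of the NAC genes, and 6.45% of 62 ERF genes.

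Dlo_006568.1 and Dlo_010076.1 held the same value in each of the 9 tissues, 291 FPKM in young fruit, 288 in stem, 233 in pericarp, 214 in flower, 208 in leaf, 175 in flower bud, 41.9 in seed, 31.2 in root and 1.81 in pulp. Dlo_036147.1 (written dlo_036147.1 in the table) likewise shared all its values with dlo_035523.1, which is not on the transcription factor list. With scaling, stem rather than young fruit was the peak of the equal pair. Equal rows were found for 1029 of the 23661 genes at 1 FPKM or more (4.35%, in 445 groups). Whether they are near-identical copies between which reads could not be assigned was not tested, and the 3 members are reported as uncertain. dlo_036147.1 was at 248 FPKM in flower bud, 97.3 in stem, 74.2 in flower, 48.2 in pericarp, 40.8 in root, 11.6 in leaf, 8.04 in seed, and 0 in young fruit and pulp.

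The 11 pairs of tissues that the study lists were compared here, with a gene called changed at a 2-fold or larger difference on log2(FPKM + 1). Many of the pairs share a library, above all young fruit, pulp and seed, and their counts are not independent of each other. Each count below is of the members above 0 in either tissue, and the percentage of all genes called in the same direction stands beside it. Of the 75 members at 1 FPKM or more, 1 (Dlo_016321.1) changed in none of the 11 pairs (1.33%, against 9.76% of all genes). The most, 10 pairs, was reached by Dlo_018490.1, Dlo_026648.1 and dlo_036147.1.

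Among the vegetative tissues, NAC genes differed more often than genes at large, except on the leaf side of leaf against stem. Root against stem gave 21 genes higher in root (26.3% of 80, background 18.6%) and 25 higher in stem (31.3%, background 14.9%). The extremes were Dlo_022129.1, at 56.7 against 1.94 FPKM, and Dlo_032492.2, described above. Root against leaf gave 24 higher in root (29.6% of 81, background 24.8%) and 23 higher in leaf (28.4%, background 18.2%), with Dlo_033865.1 at 57.3 FPKM in root and 0 in leaf. Leaf against stem was lopsided, with 6 higher in leaf (7.69% of 78, background 11.3%) and 26 higher in stem (33.3%, background 17.4%). The leaf side was led by Dlo_025558.1 (3.17 on the log2 scale) and the stem side by Dlo_005654.1, at 11.6 FPKM in stem and 0 in leaf.

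Flower bud and flower were the most alike. There were 8 members higher in flower bud (8.99% of 89, background 11.3%) and 3 higher in flower (3.37%, background 7.51%). Dlo_008599.1 was at 11.2 FPKM in flower bud and 0.93 in flower, and Dlo_005391.1 stood at 1.34 FPKM in flower bud and 5.82 in flower. Flower bud against young fruit gave 14 higher in flower bud (14.9% of 94, background 14.5%) and 24 higher in young fruit (25.5%, background 23.3%), both near the background. The largest were dlo_036147.1 (7.96 on the log2 scale) and, toward young fruit, Dlo_030395.1, which was at 0 in flower bud and 51.4 FPKM in young fruit. Flower against young fruit gave 13 higher in flower (14.9% of 87, background 12.6%) and 30 higher in young fruit (34.5%, background 28.5%).

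Within the fruit, more members were higher in young fruit and pericarp than in pulp or seed. Young fruit against pulp gave 39 higher in young fruit (49.4% of 79, background 36.1%) and 5 higher in pulp (6.33%, background 10.9%). Pericarp against pulp gave 45 higher in pericarp (63.4% of 71, background 30.3%) and 2 higher in pulp (2.82%, background 13.2%), the largest excess over the background among the 11 pairs. The leading genes on the high side in both pairs were the equal pair Dlo_006568.1 and Dlo_010076.1, which count as 2 members here. The median difference over the 71 members was 1.74 on the log2 scale, against 0.36 over all genes.

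Young fruit against seed gave 35 higher in young fruit (42.2% of 83, background 23.3%) and 12 higher in seed (14.5%, background 13.4%). Dlo_003777.1, at 32.7 FPKM in young fruit and 0.22 in seed, and Dlo_021973.1, at 8.81 and 486 FPKM, were the extremes. Pericarp against seed gave 29 higher in pericarp (37.7% of 77, background 17.9%) and 5 higher in seed (6.49%, background 15.4%), from Dlo_032492.2 at 6.28 to Dlo_018490.1 at -4.09 on the log2 scale. Pulp against seed gave 4 higher in pulp (5.80% of 69, background 12%) and 21 higher in seed (30.4%, background 27.4%). Dlo_018490.1, at 0 in pulp and 89.4 FPKM in seed, was the largest of the latter.

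**Figure D3:**
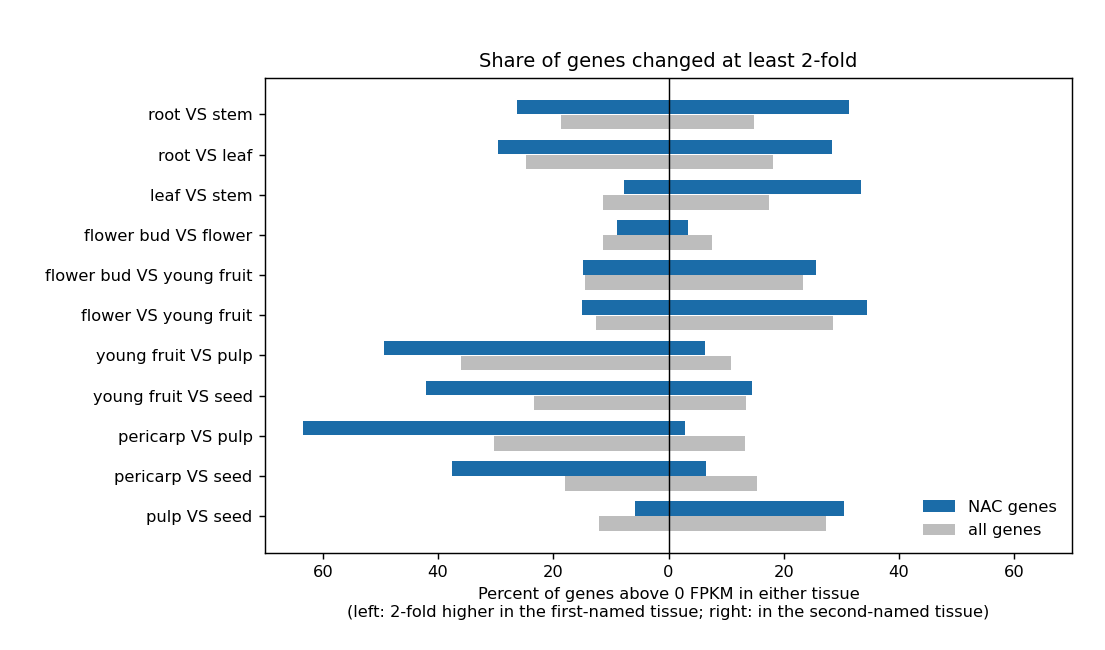
Percent of NAC genes (blue) and of all genes (grey) that differed by at least 2-fold on log2(FPKM + 1) in the 11 tissue pairs, among genes above 0 in either tissue. Bars to the left are genes higher in the first-named tissue and bars to the right genes higher in the second. The longest blue bar is pericarp over pulp (63.4%, grey 30.3%), and the blue bars of flower bud against flower (8.99% and 3.37%) are shorter than the grey ones.

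No NAC gene separated the vegetative organs from the mature fruit parts as a whole. None of the 88 members above 0 in these tissues had its lowest value among root, stem and leaf 2-fold above its highest among pericarp, pulp and seed (background 0.714%), and none had the reverse (background 0.267%). With backgrounds under 1%, a count of 0 is not a result about the family.

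Over the 103 genes, the first principal component of the tissues held 85.0% of the variance, with loadings of 0.31 to 0.34 in all 9, the overall level of a gene. Component 2 (5.004%) placed young fruit (0.53), pericarp (0.37), stem (0.33) and leaf (0.21) against flower bud (-0.33), seed (-0.33), flower (-0.31), pulp (-0.28) and root (-0.18). Component 3 (3.81%) was led by root (0.82). On log2(FPKM + 1) the closest pair of libraries over the NAC genes was flower bud and flower, with r = 0.98 (0.93 over all genes). Stem and pericarp (0.95, against 0.91 over all genes) and flower and seed (0.93, against 0.80 over all genes) followed. The most distant were root and pulp (0.70), which were also the most distant over all genes (0.75). The order depended on the measure. By Spearman's rho stem and pericarp (0.91) were closer than flower bud and flower (0.88). On untransformed FPKM flower and seed were closest (0.97, against 0.96 for flower bud and flower), and root and pericarp (0.41) were more distant than root and pulp (0.74). These correlations are over genes of single libraries, and the genes of a family are not independent points.

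**Figure D4:**
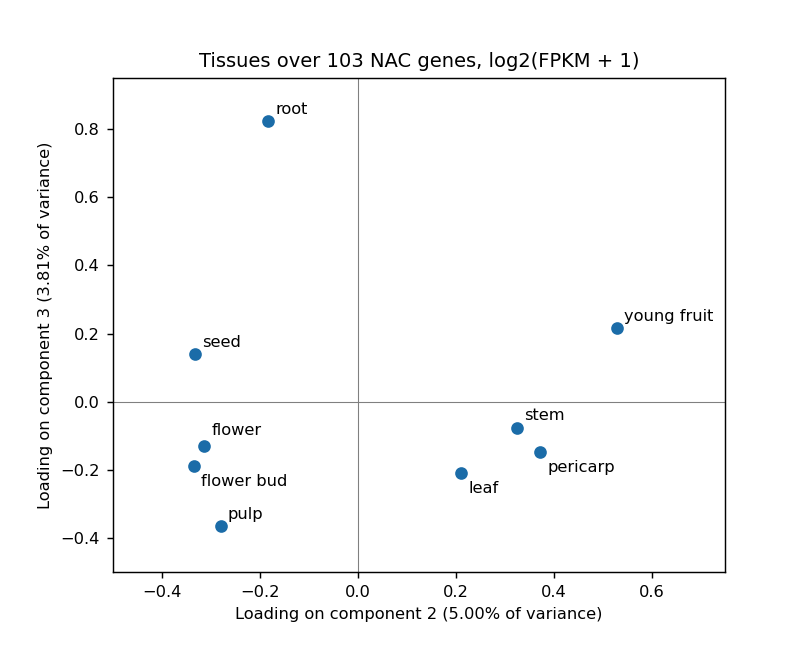
Loadings of the 9 tissues (1 library each) on components 2 and 3 of log2(FPKM + 1) over the 103 NAC genes. Stem, leaf, pericarp and young fruit lie to the right, the floral libraries, seed and pulp to the left, and root stands apart at the top with a loading of 0.82 on component 3.

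Members with consecutive gene numbers were compared as possible neighbours on the assembly, since positions were not used here. There were 12 such pairs, with 21 members in 9 runs. In the 7 pairs with both genes at 1 FPKM or more, median r over the 9 tissues was 0.87, against 0.15 over the 16614 such pairs of neighbouring genes in the table and 0.16 over the 2775 pairs of NAC genes at this level. They shared the peak tissue in 4 of 7 pairs (57.1%, against 18.3% of neighbouring genes). The median of 0.87 is the r of Dlo_021435.1 and Dlo_021436.1, which reached only 1.11 and 3.79 FPKM and had a Spearman's rho of 0.55. Over all 11 pairs with a correlation, the median r was 0.63. Several of the 7 pairs come from 1 run of 4 genes, so they are not independent. Near-identical neighbours can also share reads, and that was not tested.

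The longest run has 4 genes. Dlo_012394.1, Dlo_012395.7 and Dlo_012396.3 peaked together in pericarp, at 20.8, 47.7 and 44.4 FPKM, with 7.67, 11.7 and 23.1 FPKM in stem, and were at 0, 0 and 0.81 FPKM in root. Dlo_012393.1, the first of the run, departed from them. It was at 61.5 FPKM in flower bud, 22.0 in pericarp, 20.04 in stem, 16.6 in root, 12.2 in flower, 11.2 in seed, 10.5 in leaf, 7.93 in young fruit and 5.56 in pulp, and r with Dlo_012394.1 was 0.10. The study's annotation gives it a NAC domain. Dlo_012396.3 also tracked Dlo_028054.1, far from it in number (r = 0.99), at 44.4 against 1161 FPKM in pericarp. This was the highest r, after the equal pair, among 1431 pairs of members at 5 FPKM or more in a tissue, and it rests on 9 tissues.

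The pair Dlo_025557.1 and Dlo_025558.1 peaked in leaf at 15.7 and 41.1 FPKM, with r = 0.98. Dlo_026647.1 and Dlo_026648.1 differed in level, 3.47 FPKM at most for the first and 89.9 for the second, and in peak (young fruit and stem). Dlo_016321.1 (30.2 to 72.0 FPKM) and Dlo_016323.1 stand by number on either side of Dlo_016322.1, which did not exceed 0.32 FPKM. Dlo_021435.1 and Dlo_021436.1 were both root genes (1.11 and 3.79 FPKM), Dlo_031573.1 and Dlo_031574.1 were above 0 in flower bud alone (0.32 and 0.78 FPKM), and Dlo_029896.1 and Dlo_029897.1 were at 0. Dlo_007369.1 and Dlo_007371.1, with numbers 2 apart, were alike at 7.76 and 5.90 FPKM in pericarp (r = 0.97).

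**Figure D5:**
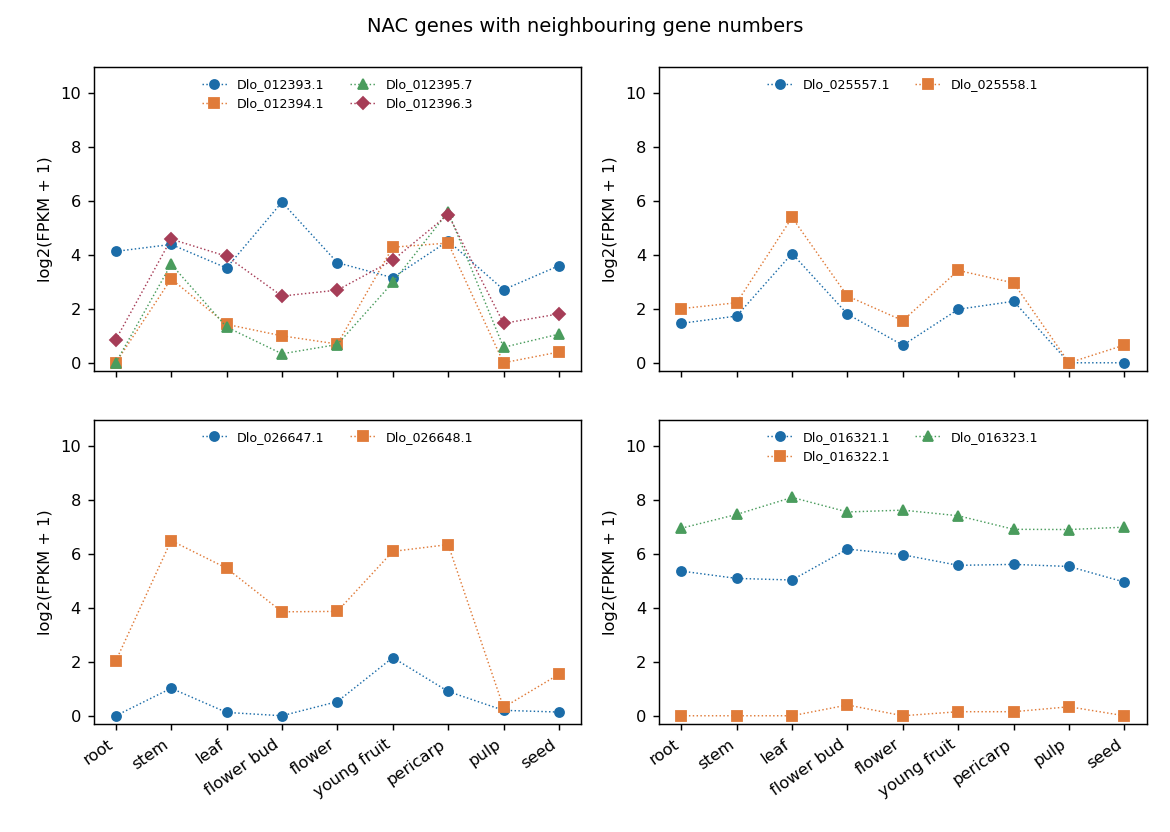
Log2(FPKM + 1) by tissue (1 library each) for 4 runs of NAC genes with consecutive gene numbers; the dotted lines only join the points of 1 gene. Dlo_012394.1, Dlo_012395.7 and Dlo_012396.3 share a pericarp peak that Dlo_012393.1 (61.5 FPKM in flower bud) does not, and Dlo_016322.1 stays near 0 between its neighbours.

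A group of 12 NAC genes belongs to 1 orthologous family that the study lists among families changed in size in longan. The family has 16 longan genes, 12 of them typed NAC. These were low in all tissues. At 0 everywhere were 3 (Dlo_029891.1, Dlo_029896.1 and Dlo_029897.1), 7 stayed under 1 FPKM (Dlo_004468.1, Dlo_007114.1, Dlo_007149.1, Dlo_009470.1, Dlo_022712.4, Dlo_033084.1 and Dlo_033085.1) and 2 exceeded it. The latter were Dlo_023681.1, above 0 in all tissues but pulp with a peak of 4.53 FPKM in stem, and Dlo_007139.1, with 2.33 FPKM in pericarp. The median of their highest values was 0.26 FPKM, against 15.7 FPKM over the other 91 members, of which 73 reached 1 FPKM. Dlo_006903.1 is the 1 NAC gene of another family on that list. It was at 0 in all tissues, while 12 of the 13 genes of its family in the table were above 0 in a tissue.

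Annotation of 5 members in the study's variant tables names a NAC domain. For Dlo_014673.1 the nearest Swiss-Prot entry is CUP-SHAPED COTYLEDON 2 of Arabidopsis, which sets the boundaries between organs at the shoot tip and in flowers. The longan gene was above 0 in flower bud (0.26 FPKM) and flower (0.12 FPKM) and in no other tissue. Both values are near 0 in 1 library each, and flower bud had the most NAC genes above 0, so a floral preference cannot be read from them. Dlo_009642.1 was highest in stem (3.83 FPKM) and at 0 in root and pulp. Dlo_019186.1 was highest in stem (3.28 FPKM), then root (2.32 FPKM). Dlo_028436.1, whose annotation holds a peptidase domain beside the NAC domain, was at 8.09 FPKM in young fruit and at most 1.54 elsewhere.

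Transcription factor types tied to NAC genes in other plants were read from the same list. EIL genes, which carry the ethylene signal and act ahead of senescence NAC genes in Arabidopsis, summed over 4 genes to 1055 FPKM in leaf and 385 to 926 FPKM in the other 8 tissues, with pulp lowest. TCP genes, some of which restrain boundary NAC genes in Arabidopsis, summed over 19 genes to 1050 FPKM in leaf and 153 FPKM in flower. The 2 VOZ genes, a related DNA-binding family, summed to 84.3 to 192 FPKM. Most of this came from Dlo_022325.1 (71.6 to 180 FPKM), while Dlo_022805.1 was at 9.49 to 15.7 FPKM. MYB genes, among them targets of secondary wall NAC genes in Arabidopsis, were highest in flower bud (3654 FPKM over 117 genes) and lowest in pulp (1317 FPKM). WRKY genes (6892 FPKM over 57 genes) and ERF genes (14504 FPKM over 114 genes) were highest in pericarp. WRKY genes were lowest in pulp (543 FPKM) and ERF genes in root (3212 FPKM).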

How the data were processed

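The authors sequenced poly(A) RNA of 9 SJM tissues on an Illumina HiSeq, removed adaptor, low-quality, organelle and ribosomal reads, aligned the rest to the longan draft genome (TopHat2 2.0.10 in the submitters' processing notes) and deposited FPKM values per gene. That genome is of the cultivar Honghezi. The paper reports that part of the SJM reads did not map to it, and proposes variation between the cultivars as the probable reason. The tool that made the FPKM is not given in the sources used here. No counts were used, so the depth per library is known only from the spacing of low values. The study's methods name mature fruit where the labels name stem, and the library is called stem as labelled.

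Differences were taken as log2((a + 1)/(b + 1)) with a pseudocount of 1 FPKM, which understates changes of low genes, and a limit of 1 (2-fold). No test between tissues was run, because each tissue has 1 library. Dixon's limit for outlying values was used only to flag results for a closer look. Computations used pandas 2.3.3 and numpy 2.4.6 under Python 3.11.15, with scipy 1.17.1 for ranks and matplotlib 3.10.9 for plots, and the code was tested on simulated data. The members and lists were chosen with earlier results of these data known. Named genes are the 3 highest per tissue, those with tau of 0.9 or more and 5 FPKM, the 3 lowest in tau among members at 5 FPKM or more throughout, annotated or neighbouring members, the extremes of each comparison, and the 3 genes most like the highest member. Other genes named were chosen after their values were seen. Libraries were not rescaled, except in the alternatives. No sequence is shown, since none of this genome was used here.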

Additional observations from a re-analysis of the deposited data

Results flagged for a closer look

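The count of NAC genes above 0 FPKM in pulp, 42, stood apart from the other 8 tissues. Its gap to the nearest tissue (seed, 66) was 0.585 of the whole range, over Dixon's 95% limit for 9 values. Chance alone passes that limit in about 1 of 20 groups, and the tissues are different organs rather than replicates. The limit was applied to the lowest and the highest tissue of several measures (counts, sums, shares and medians), and no other value passed it. At 1 FPKM or more, pulp had 31 members and the gap was 0.367 of the range, under the limit. Pulp was also lowest over all genes, with 19322 above 0, against 21267 in leaf, the next lowest, and 23118 in flower bud, the highest. A low count in pulp is therefore not particular to the NAC genes.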

How the results depend on the processing

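No paired analysis was possible because no tissue had more than 1 library. Of the values recomputed, 202 were counted as kept and 67 as moved, with a limit of 1.5 times for counts and sums. For the log2 differences of single genes, 65 counted as kept and 1 as moved, but kept ones could change by more than 1.5 times. Dlo_005654.1 (leaf against stem) went from -3.66 to -6.87 with a pseudocount of 0.1 and to -1.73 with a pseudocount of 5. Orders changed in places. Scaling exchanged flower bud and flower for Dlo_006299.1 and Dlo_018490.1, and made root (2034 FPKM) rather than pulp (2335 FPKM) the lowest sum. The highest sum passed from flower to pericarp without the 5 highest members, and the closest and most distant tissue pairs changed with the measure. In flower bud 83 members were above 0, but 52 reached 1 FPKM (52 after scaling too) and 32 reached 5, and in pulp 21 reached 5. Without the 5 highest members the flower sum was 2265 FPKM and the pulp sum 1163. Members above 0 that peaked in root numbered 17, or 8 at 5 FPKM or more, and those in flower bud 19, or 11 at 1 FPKM and 7 at 5. Restricted members numbered 13 at a tau of 0.8, 18 on untransformed FPKM and 1 at 5 FPKM or more. With a pseudocount of 5 FPKM the changed members were 27 (root against stem), 31 (root, leaf), 14 (leaf, stem), 4 (flower bud, flower), 31 (pericarp, pulp) and 16 (pulp, seed). A pseudocount of 0.1 gave 38 (flower bud, flower), 69 (flower bud, young fruit), 52 (pericarp, seed) and 49 (pulp, seed), and 2 instead of 0 members higher in root, stem and leaf. A 4-fold limit gave 24 (root, stem), 25 (root, leaf), 10 (leaf, stem), 2 (flower bud, flower), 24 (flower bud, young fruit), 20 (flower, young fruit), 25 (young fruit, seed), 31 (pericarp, pulp), 22 (pericarp, seed) and 13 (pulp, seed). A minimum of 5 FPKM in 1 of the tissues left 18 (leaf, stem), 7 (flower bud, flower) and 16 (pulp, seed). With no minimum gap 5 members were higher in root, stem and leaf. Component 2 held 14.5% on untransformed FPKM, Spearman's rho for root and pulp was 0.56, and the neighbour median rose from 0.63 over 11 pairs to 0.87 where both genes reached 1 FPKM. The difference of Dlo_005391.1 between flower bud and flower was -0.77 with a pseudocount of 5, under the limit. Counting the equal pair once moved none of 38 values, and leaving the pulp library out of the separation moved neither count; both were chosen after seeing the data. The low members cannot be ranked, since the counts behind their FPKM are unknown. The causes of these shifts were not tested beyond the limits themselves.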
